A study of Mus musculus with 14 samples.

Results

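The comparison described here asked how wild-type mouse embryonic fibroblasts (MEFs) differed after growth with breast cancer cells. It used 4 of the 14 arrays of the series, chosen by their sample titles. 2 arrays measured WT fibroblasts (Hsf1 +/+) that had shared a dish with tumor cells of the mouse breast cancer line D2A1, and 2 measured the same WT fibroblasts grown without tumor cells. All cultures were kept in DMEM with 10% FCS, and RNA was taken after 72 h. Co-cultured cells were separated by fluorescence-activated sorting before extraction. Other arrays of the series served as reference levels: D2A1 cells alone, D2A1 cells sorted from co-culture with WT or with Hsf1 null fibroblasts, and Hsf1 null fibroblasts alone or sorted from co-culture with D2A1 cells, each with 2 arrays. The fibroblasts had received mitomycin C (10 µg/ml for 2 h) only in those co-cultures from which the tumor cells were profiled, so the profiled fibroblasts and the profiled tumor cells came from separate cultures. Nothing in the labels states that the arrays labelled A and B came from separate cultures, and all A arrays lay on one slide and all B arrays on the other. The p-values below therefore measure only the spread between these samples, which may be technical.

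Fibroblasts are the main matrix-producing cells of connective tissue. Beside carcinoma cells they are known to become activated fibroblasts, which remodel collagen with metalloproteases, secrete chemokines such as Cxcl12 (SDF1) and growth factors, and respond to TGF-beta with contractile and matrix genes. Type I interferon, a cytokine made by many cells that sense foreign or misplaced nucleic acid, acts through a complex of STAT proteins and IRF9 on a response element in the promoters of its target genes. Hsf1 is the transcription factor of the heat shock response.

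The deposited log2 values of 36413 gene names were compared, of which 25896 were above background on enough arrays to be tested. Between 60 and 63.3% of the spots of each WT array passed the scanner software's background test, and the number of arrays limits the precision. The arrays of co-cultured fibroblasts A and B correlated at 0.997 over genes, as did those of fibroblasts alone, and a co-culture array correlated with the matching array of fibroblasts alone at 0.990 on slide A and 0.988 on slide B. Fibroblast markers stayed high: the summed level of 19 mesenchymal markers was 20.2 on every one of the 4 arrays. Tumor cells from co-culture also held this sum high, at 19.2 and 19.3 (A, then B), so it tells the 2 populations apart only weakly. Of these 19 genes 2 rose (Lum and S100a4), 0 fell, and the others, including Vim, Thy1, Pdgfrb and Col1a2, did not pass the test. A fit of the 4 WT arrays alone called 5 of them lower. Over all genes the main test called 6.31% higher and 4.2% lower, the background given beside list counts.

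Genes typical of the tumor cells were raised in the sorted fibroblasts, and this touches every result below. The summed level of 25 epithelial markers was 11.6 and 11.7 (A, then B) in fibroblasts alone and 16.2 and 16.4 in co-cultured fibroblasts, against 16.3 and 16.5 in the tumor cells from co-culture. Krt18 alone stood at 16.16 and 16.37 in co-cultured fibroblasts and at 16.14 and 16.44 in those tumor cells. The sums after co-culture are thus mostly Krt18 and do not give the level of the other markers. Of 22 tested epithelial markers 5 rose (background 6.31%) and 2 fell (background 4.2%). The 5 were Krt18, Pkp1, Krt8, Cldn3 and Elf3, which include keratins and a desmosome protein, and the 2 were Krt19 and Cldn7. The calls of Elf3, Krt19 and Cldn7 were lost whichever WT array was left out. Epcam, Krt20, Ocln, Ovol1 and Spint1 were not well above background on any WT array. There were 68 genes at least 32-fold higher in tumor cells alone than in fibroblasts alone on both slides. Their level in co-cultured fibroblasts, less that in fibroblasts alone, was set against their level in co-cultured tumor cells. The median percentage was 39.5% on slide A and 38.9% on slide B, with quartiles at 28.2 and 50.4% on A and 28.5 and 46.3% on B. This percentage is called the tumor share here, whatever its source. In the other direction, 310 genes were at least 32-fold higher in fibroblasts alone than in tumor cells alone on both slides. They kept a median 62% of their level in fibroblasts alone on slide A and 62.9% on slide B. Of these 310 genes, 36 fell (background 4.2%) and 0 rose (background 6.31%). They were picked for a high level on the same arrays of fibroblasts alone, which favours a fall. In the sorted tumor cells those 310 genes, less their level in tumor cells alone, were also set against fibroblasts alone. They stood at a median 4.59% of the level in fibroblasts alone on slide A and 4.66% on slide B. Whether the transcripts of tumor cell genes came from cells passing the sort, from attached or engulfed material or from expression in the fibroblasts was not tested, and in bulk RNA fewer cells of a type and less RNA per cell cannot be told apart. Each gene is therefore given beside its tumor cell level, and where stated also after the median share of the tumor profile had been subtracted and the remainder rescaled.

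Few single markers of other cell types passed the test (background 6.31% higher and 4.2% lower), while the summed levels of the macrophage and endothelial lists shifted. Of 13 tested macrophage and leukocyte markers 1 rose: Cd14, the lipopolysaccharide co-receptor, which averaged 13.08 in tumor cells alone. The summed level of that list was 11.2 on both arrays of fibroblasts alone and 12.5 and 12.6 after co-culture, with Itgax, Fcgr1, Mrc1 and Cd163 not well above background and the leukocyte gene Ptprc at a difference of -0.04 (SE 0.17). Among 9 tested endothelial markers limma called 0, with 3 at an unadjusted p under 0.05, and Cdh5, Tek, Tie1, Flt4 and Sox17 were not well above background. The summed endothelial level went from 14.8 and 15 to 14.1 and 14.3. For muscle and neural markers the sum was 13.7 and 13.4 in fibroblasts alone and 13.6 on both arrays after co-culture. Of 15 tested muscle and neural markers 1 rose (Nes) and 1 fell (Tubb3), a call that was lost for both when any 1 WT array was left out, with adjusted p-values up to 0.22 and 0.19.

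Over all genes, 2722 of 25896 (10.5%) passed limma's moderated test at an adjusted p under 0.05, of which 1634 (6.31%) were higher and 1088 (4.2%) lower in co-cultured fibroblasts. All 2722 moved the same way on both slides. A 2-fold difference was reached by 804 of the higher genes and 188 of the lower ones, and the median over all genes was -0.04. The higher genes were mostly genes of the tumor cells: 1089 of the 1634 were at least 2-fold higher in tumor cells alone than in fibroblasts alone, and 1421 lay at or below their level in co-cultured tumor cells. Likewise 713 of the 1088 lower genes were at least 2-fold lower in tumor cells alone. After subtraction of the tumor share and rescaling, 733 genes (2.83%) were higher and 2202 (8.5%) lower. Of the genes above, 529 stayed higher, 354 stayed lower and 225 went from higher to lower. With 1 array left out the count of genes was 1379 without co-culture A, 1301 without co-culture B, 1592 without fibroblasts alone A and 1344 without fibroblasts alone B.

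**Figure D1:**
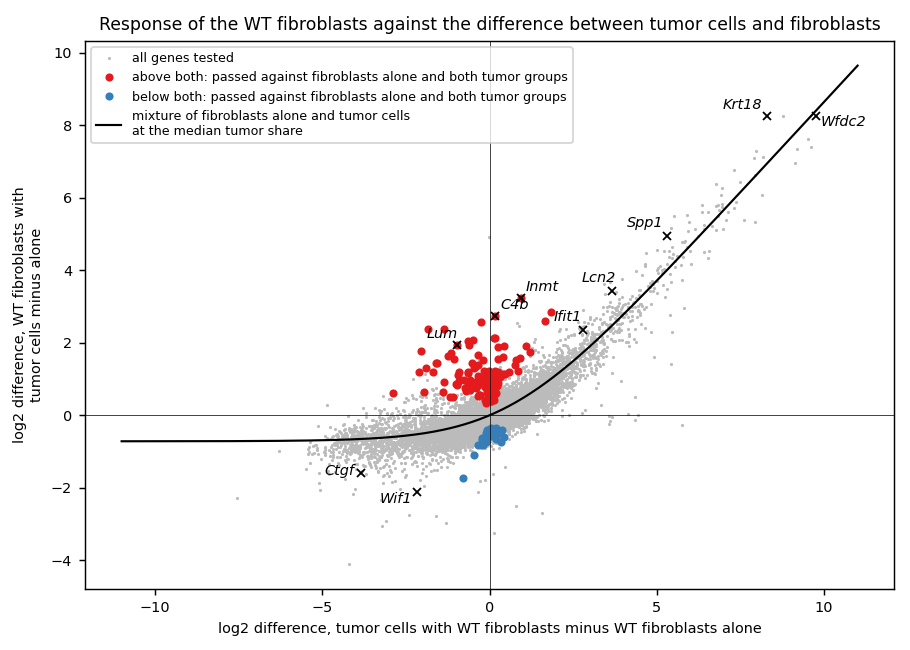
Log2 difference between co-cultured WT fibroblasts and WT fibroblasts alone (vertical axis) against the difference between co-cultured tumor cells and WT fibroblasts alone (horizontal axis), one point per tested gene, with named genes labelled. The curve is a mixture of both profiles at the median tumor share. Genes on the right lie along it, Krt18 lies above it, the 108 red genes (among them C4b, Inmt and Lum) lie above both fibroblasts alone and the tumor cells, and the 38 blue genes below both.

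The largest rises belonged to genes that the tumor cells expressed strongly. Krt18, which pairs with Krt8 in simple epithelia, was measured at 7.84 and 8.18 (log2, A then B) in fibroblasts alone and 16.16 and 16.37 after co-culture. Its level in co-cultured tumor cells averaged 16.29, so the 2 cell populations were at the same level. The difference was 8.25 (SE 0.22, adjusted p = 3.15e-09). Wfdc2, a secreted whey acidic protein family member of epithelia, went from 6.07 and 6.34 to 14.45 and 14.51, below the tumor cells' mean of 15.95. Mgst2, a microsomal glutathione transferase, went from 7.24 and 7.40 to 14.64 and 14.58. Tnnt2, cardiac troponin T, went from 5.88 and 6.45 to 13.24 and 13.32. In each of these genes both co-culture arrays stood far above both arrays of fibroblasts alone and at or below the tumor mean of 15.27 for Mgst2 and 14.07 for Tnnt2. Probes named for the chemosensory receptors Olfr1466 and Tas2r113, the cytochrome Cyb561 and the hepcidin gene Hamp2 were among the other large rises, with differences of 8.27, 6.95, 6.76 and 6.63. Genes not well above background in fibroblasts alone have only a lower bound: Mmp10, a stromelysin, was at least 77.5-fold higher after co-culture, and Cadm1, a cell adhesion molecule, at least 41.8-fold higher. After subtraction of the tumor share and rescaling Wfdc2, Tas2r113 and Cadm1 sat at the floor on both arrays, while Krt18, Mgst2, Tnnt2 and Cyb561 still differed by 8.23, 6.63, 6.19 and 6.26. The share subtracted was a median. Over the 68 genes the percentage ran from 6.96 to 101% on slide A and from 6.62 to 94.8% on slide B. A tumor gene above the median keeps a remainder by construction, and the source of these remainders was not tested.

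The largest falls were smaller than the largest rises and in genes that the tumor cells lacked or held at lower levels. The top 2, of 4.1 and 3.05 on the log2 scale, belonged to transcripts with no gene symbol on the array. Prosapip1 (now Lzts3), a synaptic scaffold gene, was measured at 11.81 and 11.67 in fibroblasts alone and 9.05 and 8.92 after co-culture. The fall of 2.76 (log2, SE 0.16, adjusted p = 1.1e-06) put it below the tumor cells' mean of 9.34 after co-culture. Wif1, a secreted Wnt inhibitor, went from 9.04 and 8.89 to 6.90 and 6.78, the level of co-cultured tumor cells. Its fall was 2.12 (log2, SE 0.20). Emid2 (now Col26a1), a collagen-type matrix gene, fell by 2.03. Clec3b (tetranectin) fell by 1.82, the transcriptional corepressor Skor1 by 1.75 and Klra1, an NK cell receptor gene, was at least 2.82-fold lower. With scanner intensities scaled to their 75th percentile Emid2, Skor1, Clec3b and Wif1 lost their calls (adjusted p = 0.158, 0.128, 0.0613 and 0.0611). Klra1 lost its call with normexp-corrected scanner intensities (adjusted p = 0.169), and Prosapip1 kept its call in both settings.

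Some genes lay outside the range spanned by fibroblasts alone and both tumor groups, where no mixture of these measured profiles falls. 108 genes (0.417%) were above WT fibroblasts alone, tumor cells alone and tumor cells from WT co-culture, each by the test, and 38 genes (0.147%) were below all of them. Of the 108 genes 57 were at least 2-fold above fibroblasts alone, and 59 also rose in Hsf1 null fibroblasts after co-culture (background 2.81%). C4b, a complement component, was measured at 10.40 and 10.25 in fibroblasts alone and 13.01 and 13.12 after co-culture, while tumor cells averaged 6.83 alone and 10.50 with fibroblasts. Inmt, an amine methyltransferase, went from 8.42 and 8.68 to 11.77 and 11.81, with tumor means of 7.40 and 9.49. Lum, the collagen-binding proteoglycan lumican, went from 7.03 and 7.01 to 9.03 and 8.87, with tumor means of 5.07 and 6.05. In all of these the co-culture arrays exceeded every fibroblast-alone array and both tumor means. Their rises were 2.74 (SE 0.36, adjusted p = 0.000651), 3.24 (SE 0.21, adjusted p = 2.33e-06) and 1.93 (SE 0.14, adjusted p = 5.64e-06). Slc6a2, the noradrenaline transporter, rose by 2.60, though only 1 of its 2 arrays of fibroblasts alone was well above background, and Angptl7, a secreted angiopoietin-like protein, was at least 7.26-fold higher. The kidney and mesothelium transcription factor Wt1 rose by 1.44, the homeobox gene Irx1 by 1.23, sphingosine kinase Sphk1 by 1.15 and carbonic anhydrase Car12 by 1.18. Slc6a2, Irx1, Sphk1 and Car12 did not stay outside the range in every fit that left out 1 WT array. Of the 108 genes 41 kept this place when any 1 of the 4 WT arrays was left out, and of the 38 genes below only 1 did, with totals of 97, 68, 87 and 69 without co-culture A, co-culture B, fibroblasts alone A and fibroblasts alone B.

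**Figure D2:**
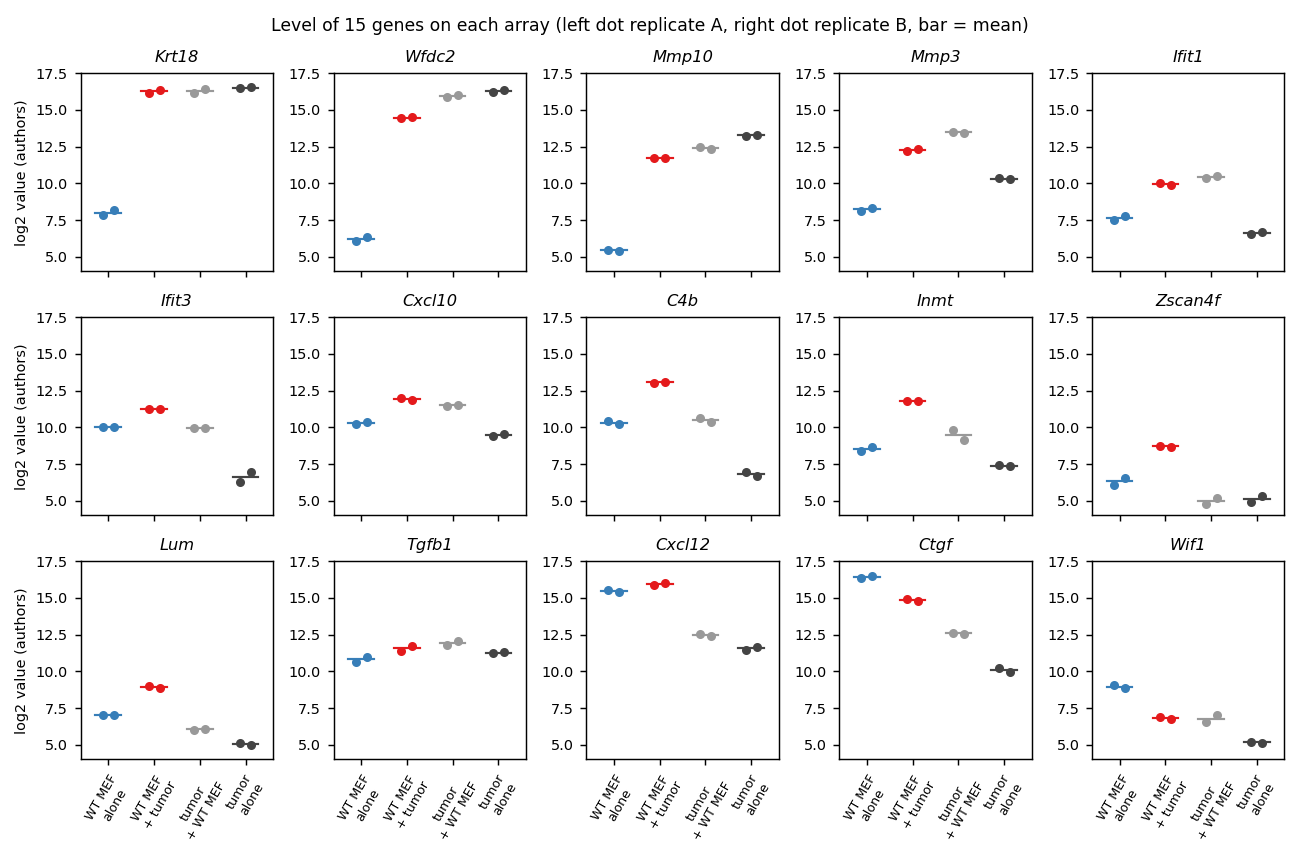
Log2 level of 15 named genes on each array of WT fibroblasts alone, WT fibroblasts from co-culture, tumor cells sorted from the WT co-culture and tumor cells alone; each point is 1 array and each bar the mean of 2. Krt18 and Mmp10 in co-cultured fibroblasts lie at or toward the tumor level, whereas C4b, Inmt, Lum and Zscan4f lie above both the fibroblast-alone and the tumor arrays.

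The genes below the whole range included cell cycle genes. Gm5223, a predicted gene, went from 14.01 and 13.81 to 12.16 and 12.20, against tumor means of 13.33 and 13.10, a fall of 1.73 (log2, SE 0.12, adjusted p = 4.74e-06). It was the largest fall among the 38 genes. The others named here were small falls: Brip1, a helicase of the BRCA1 complex, by 0.60, Traip, a replication-coupled ubiquitin ligase, by 0.67, the kinetochore genes Cenpk and Kntc1 by 0.48 and 0.45, Rad51ap1, a recombination factor, by 0.45, and Fbxo5, an inhibitor of the anaphase-promoting complex, by 0.44. These 6 genes were picked from the 38 after their values were seen, and each lost its call in at least 2 of the 4 fits that left out a WT array, with the highest adjusted p between 0.0753 (Kntc1) and 0.159 (Cenpk).

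Of 40 tested interferon-stimulated genes 24 were higher, 0 lower and 16 did not pass (background 6.31% higher), with a median difference of 0.91 against -0.04 over all genes. Only 2 of the 24 were at least 2-fold higher in tumor cells alone than in fibroblasts alone. Ifit1, an antiviral RNA-binding protein, was measured at 7.52 and 7.75 in fibroblasts alone and 10.05 and 9.92 after co-culture. Oasl2, an oligoadenylate synthase-like protein, went from 8.36 and 8.67 to 11.03 and 11.09, and Mx2, an antiviral GTPase, from 8.14 and 8.33 to 9.98 and 10.22. Both co-culture arrays of all of these lay above both fibroblast-alone arrays. The rises were 2.35 (SE 0.14, adjusted p = 1.01e-06), 2.55 (SE 0.18, adjusted p = 5.55e-06) and 1.86 (SE 0.23, adjusted p = 0.000356). Co-cultured tumor cells held these genes at similar means of 10.43, 11.87 and 9.50, but tumor cells alone at only 6.63, 8.33 and 5.83.

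Other interferon genes spanned sensors, transducers and effectors. Zbp1, a sensor of Z-form nucleic acid, rose by 2.21, Usp18, the protease that removes Isg15, by 2.06, the guanylate-binding protein Gbp3 by 1.89 and the interferon-induced Ifi203 by 3.07. The ubiquitin-like modifier Isg15 rose by 0.92 (SE 0.14), and the signal transducer Irf9 by 0.90 (SE 0.12). Isg15 differed by -0.025 when the scanner intensities, averaged over its probes, took the place of the deposited values. The transcription factor Stat2 differed by 0.46 (SE 0.15, adjusted p = 0.0792). Ifit3, another RNA-binding antiviral protein, went from 10.01 and 10.00 to 11.24 and 11.24 and lay above co-cultured tumor cells (9.98) and tumor cells alone (6.62), as did Xaf1 and Ifi44. Interferon genes outside the list, named for lying above the whole range, were Uba7, the activating enzyme of Isg15 (0.89), the membrane protein Ifitm3 (0.60) and the GTPase Tgtp2 (1.04). Xaf1, Ifi44, Ifitm3 and Tgtp2 lost their call in each of the 4 fits that left out a WT array, with adjusted p-values up to 0.205, and Uba7 in 1 of them, at 0.0519. The count of 24 became 17 to 21 in those fits. After subtraction of the tumor share and rescaling 20 of the 40 genes were higher, 18 of them among the 24. Ifi203 and Oas1a then sat at the floor set for values too low to measure, where values have no order, and Gbp3 and Usp18 were at -0.32 and -0.013. With the upper quartile of the share 17 were higher (background 3.38%), 14 of them among the 24. In Hsf1 null fibroblasts 33 of the 40 genes rose after co-culture, against a background of 2.81%, and 0 fell. Null fibroblasts alone held Ifit1 at a mean of 10.83, and tumor cells grown with null fibroblasts at 13.85, both above their WT counterparts.

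The promoters of interferon genes are shown because 24 of the 40 listed genes rose. Windows of 250 bases before the annotated start (RefSeq, GRCm38.p6) are printed 5′ to 3′ on the gene's strand, for Ifit1 (chr19:34640639-34640888, plus strand), Isg15 (chr4:156200819-156201068, minus strand) and Cxcl10 (chr5:92348890-92349139, minus strand). Capitals mark the core of the interferon-stimulated response element, which reads GAAA, any 2 bases, GAAA, or on the other strand TTTC, any 2 bases, TTTC.
Ifit1: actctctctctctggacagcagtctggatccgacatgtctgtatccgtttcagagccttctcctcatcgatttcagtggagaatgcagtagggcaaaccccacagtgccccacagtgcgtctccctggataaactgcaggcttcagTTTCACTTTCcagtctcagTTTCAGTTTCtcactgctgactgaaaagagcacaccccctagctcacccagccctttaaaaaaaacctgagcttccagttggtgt
Isg15: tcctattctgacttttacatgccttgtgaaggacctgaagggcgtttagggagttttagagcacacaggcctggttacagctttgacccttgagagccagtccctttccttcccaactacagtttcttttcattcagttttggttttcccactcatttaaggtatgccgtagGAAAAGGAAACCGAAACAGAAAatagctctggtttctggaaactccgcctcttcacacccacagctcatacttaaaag
Cxcl10: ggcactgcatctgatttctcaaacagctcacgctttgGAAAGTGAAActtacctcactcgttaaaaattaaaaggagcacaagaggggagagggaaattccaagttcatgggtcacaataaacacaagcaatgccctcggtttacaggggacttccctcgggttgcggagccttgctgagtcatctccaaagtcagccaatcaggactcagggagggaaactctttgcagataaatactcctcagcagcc
Ifit1 holds 2 matches, at 104 to 95 and 85 to 76 bases before its start. Isg15 holds 3 overlapping matches between 78 and 57 bases before its start, and Cxcl10 holds 1 at 213 to 204. Of the 27025 genes with a window of 300 bases (250 before the start and 50 after), 1079 (3.99%) held the core on either strand. It was held by 11 of 17 interferon genes that rose and had a window (64.7%) and by 8 of 13 that did not pass (61.5%). A match describes letters in the window and not binding.

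Of 31 tested inflammatory genes 8 were higher, 0 lower and 23 did not pass (background 6.31% higher), with a median of 0.30. Ccl5, a T cell chemoattractant, was measured at 11.60 and 12.15 in fibroblasts alone and 13.88 and 14.07 after co-culture, and Cxcl10, an interferon-induced chemokine, at 10.20 and 10.38 and then 11.98 and 11.85. For both the arrays did not overlap. The rises were 2.10 (SE 0.27, adjusted p = 0.000522) and 1.63 (SE 0.23, adjusted p = 0.0011), with tumor cells alone at 9.03 and 9.47. Lcn2, an iron-binding acute phase lipocalin, rose by 3.44 and stood at 9.62 in tumor cells alone and 11.13 in co-cultured tumor cells. The complement gene C3 rose by 1.83, Il11, a cytokine of the interleukin 6 family, by 1.28, the nuclear alarmin Il33 by 0.76, Ptges, a prostaglandin E synthase, by 0.65 and the macrophage growth factor Csf1 by 0.34. Outside the list, and named for lying above the whole range, haptoglobin (Hp) rose by 1.52 and Il1rn, the interleukin 1 receptor antagonist, by 1.2. Neither stayed above the whole range in every fit that left out 1 WT array. Calls were lost for C3 without co-culture B, fibroblasts alone A or fibroblasts alone B (adjusted p up to 0.07), for Il1rn without co-culture B or fibroblasts alone A (up to 0.0873) and for Il33 without co-culture A or fibroblasts alone A (up to 0.0743), and for Csf1 whichever WT array was left out (up to 0.212). After subtraction and rescaling Il11 and Csf1 were at -0.15 and -0.22. Il6, Ccl2 and Cxcl1 differed by 0.03 (SE 0.89), 0.10 (SE 0.41) and 0.75 (SE 0.42), none of which passed. The list's count of 8 became 5 without fibroblasts alone A.

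A set of genes best known from the early embryo was also above the whole range. These names were noticed among the 108 genes after their values were seen. Zscan4 genes encode zinc-finger proteins known from the 2-cell mouse embryo and from a small fraction of embryonic stem cells. Zscan4e was measured at 6.67 and 6.83 in fibroblasts alone and 9.02 and 9.25 after co-culture, and Zscan4f at 6.10 (not well above background) and 6.56 and then 8.73 and 8.69. Both tumor groups averaged below 6 for both genes: Zscan4e stood at 5.22 in tumor cells alone and 4.92 in those from co-culture. The rises were 2.39 (SE 0.35, adjusted p = 0.00138) and 2.37 (SE 0.32, adjusted p = 0.00071), and Zscan4a and Zscan4c rose by 1.94 and 1.65. 6 symbols of the Pramel family, another germline and early embryo family, rose by 0.84 to 1.45. Hsf1 null fibroblasts showed differences of 3.39 for Zscan4e and 2.92 for Zscan4f. Tumor cells from co-culture with null fibroblasts, which are not part of the range used here, held Zscan4f at 7.82 and 6.63 (A, then B). Tumor cells alone held it at 4.93 and 5.31. Array A of both tumor groups carried many outlier flags. Members of the Zscan4 family are near-identical in sequence, so the probes may read the same transcripts and the 4 Zscan4 names are not independent. Whether the Pramel probes share transcripts was not tested. Their differences in null fibroblasts ran from 0.075 (Pramel51) to 2.39 (Pramel39).

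Matrix proteases moved both ways. Of 28 tested proteases and inhibitors 5 were higher and 6 lower (background 6.31% higher and 4.2% lower). Mmp3 (stromelysin 1), which cleaves matrix proteoglycans and activates other metalloproteases, was measured at 8.15 and 8.36 in fibroblasts alone and 12.22 and 12.33 after co-culture. Mmp10 (stromelysin 2) went from 5.49 and 5.40 to 11.71 and 11.73, and Mmp13 (collagenase 3) from 5.48 and 5.46 to 8.78 and 8.62. The 3 genes sat far above fibroblasts alone and below co-cultured tumor cells, whose means were 13.47, 12.40 and 9.84. The difference for Mmp3 was 4.03 (SE 0.11, adjusted p = 3.7e-09). Mmp9 (gelatinase B), which sat at the floor after subtraction, rose by 1.99 and Timp1, a secreted metalloprotease inhibitor, by 0.67. Mmp15, a membrane-anchored metalloprotease, fell by 1.45. After subtraction of the tumor share and rescaling Mmp10 was still higher (adjusted p = 2.58e-07), by an amount that its background level in fibroblasts alone does not give, while Mmp3 and Mmp13 did not pass (adjusted p = 0.427 and 0.526). The share subtracted was a median, and Mmp10 lay above it relative to the tumor cells, so a remainder was left by construction. The list's count of 6 lower genes became 3 without fibroblasts alone A and 2 without any of the other 3 WT arrays.

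The promoters of the stromelysin genes are shown because both genes rose strongly and lie near each other on chromosome 9. The windows are chr9:7502092-7502341 (Mmp10) and chr9:7445572-7445821 (Mmp3), both on the plus strand of GRCm38.p6, with the AP-1 site TGAGTCA in capitals. AP-1 is the Fos and Jun transcription factor.
Mmp10: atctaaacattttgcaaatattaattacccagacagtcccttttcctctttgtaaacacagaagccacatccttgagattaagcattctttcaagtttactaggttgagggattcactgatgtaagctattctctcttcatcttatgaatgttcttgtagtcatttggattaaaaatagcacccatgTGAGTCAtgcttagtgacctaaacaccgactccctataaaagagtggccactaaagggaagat
Mmp3: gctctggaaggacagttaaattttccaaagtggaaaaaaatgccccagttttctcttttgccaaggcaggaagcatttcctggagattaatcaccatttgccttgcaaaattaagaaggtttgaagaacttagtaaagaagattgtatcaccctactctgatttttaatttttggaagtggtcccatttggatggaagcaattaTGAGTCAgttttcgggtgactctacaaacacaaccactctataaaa
The match lies 63 to 57 bases before the start of Mmp10 and 46 to 40 before that of Mmp3. The letters were found on either strand in 1607 of 27025 genes (5.95%) and in 9 of the 53 rising genes named by the rule that had a window (17.0%), in 3 of 25 such falling genes (12%) and in 84 of the 988 windows of all rising genes (8.5%). Fosl1 (Fra-1), an AP-1 subunit, was measured at 9.18 and 9.07 in fibroblasts alone and 11.48 and 11.35 after co-culture, against a mean of 13 in co-cultured tumor cells. After subtraction of the tumor share it sat at the floor. It was 1 of 3 immediate early and AP-1 genes of 25 that rose, with Dusp6, a phosphatase of ERK kinases (1.61), and Btg1, an antiproliferative gene (0.79), whose call was lost whichever WT array was left out (adjusted p up to 0.225). The background of rises was 6.31%. In a fit of the 4 WT arrays alone 9 of the 25 rose and 3 fell.

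Growth and angiogenic factors that rose were largely those the tumor cells expressed. Of 39 tested genes 12 were higher and 4 lower (background 6.31% higher and 4.2% lower). Of the 12 genes 9 were at least 2-fold higher in tumor cells alone. Areg (amphiregulin), a ligand of the EGF receptor, was measured at 5.63 (not well above background) and 5.67 in fibroblasts alone and 11.29 and 11.21 after co-culture, with tumor means of 11.41 and 12.78. Pgf, a placental growth factor of the VEGF family, went from 7.27 and 7.81 to 10.41 and 10.65, with tumor means of 12.30 and 11.49. Both stood between fibroblasts alone and the co-cultured tumor cells. The rises were 5.6 (SE 0.12, adjusted p = 8.85e-10) and 2.99 (SE 0.22, adjusted p = 5.71e-06). The insulin-like growth factor binding proteins Igfbp4 and Igfbp6 rose by 3.22 and 2.07, and the angiopoietin-like genes Angptl4 and Angptl2 by 2.93 and 1.56. The 4 lower genes were Igf1, Igfbp5, Nrg1 (neuregulin 1) and Edn1 (endothelin 1). Vegfa rose by 0.58, while Igf1, a fibroblast-made growth factor, fell by 0.73. Both calls were lost whichever WT array was left out, with adjusted p-values up to 0.117 and 0.173. So was that of Nrg1 (up to 0.185), while Edn1 kept its call only without fibroblasts alone A (up to 0.101). The keratinocyte growth factor Fgf7 differed by -0.78 (SE 0.30, adjusted p = 0.135). After subtraction and rescaling 4 genes of the list were higher and 6 lower, with Areg and Angptl4 at the floor. Without fibroblasts alone A 7 were higher, and without co-culture A, co-culture B or fibroblasts alone B 1 was lower. A fit of the 4 WT arrays alone gave 10 lower.

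TGF-beta ligands and SDF1 were examined by name. Tgfb1 was measured at 10.66 and 10.97 in fibroblasts alone and 11.38 and 11.75 after co-culture, a rise of 0.75 (SE 0.18, adjusted p = 0.0215) with tumor means of 11.27 and 11.94. The arrays did not overlap, but the call was lost without co-culture B or fibroblasts alone A (adjusted p up to 0.188) and after subtraction (0.43, adjusted p = 0.198). Tgfb2 went from 13.49 and 13.27 to 12.96 and 12.73, a difference of -0.54 (SE 0.26, adjusted p = 0.255), and Tgfb3 from 15.73 and 15.88 to 15.47 and 15.58, a difference of -0.28 (SE 0.21, adjusted p = 0.493). Cxcl12 was measured at 15.55 and 15.40 in fibroblasts alone and 15.85 and 15.99 after co-culture. Its difference of 0.45 (SE 0.17) did not pass (adjusted p = 0.132), although tumor cells held it at only 11.58 and 12.47. After subtraction of the tumor share and rescaling the difference for Cxcl12 was 1.11 and passed (adjusted p = 0.0024). Rescaling divides by 1 minus the share, whose log2 was -0.73 on slide A and -0.71 on slide B. That step raises every gene above the floor, and the fit takes the share as exact. The receptor of Cxcl12 is given next. Its receptor Cxcr4 was not well above background, at 5.18 and 4.97 and then 5.01 and 4.99.

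Calls among TGF-beta and contractile genes went both ways. Of 23 tested TGF-beta genes 3 were higher and 4 lower (background for both lists 6.31% higher and 4.2% lower). The calls of Tgfbr3, a co-receptor (0.68), of Smad6, an inhibitory SMAD (-0.86), and of Tgfb1i1, a focal adhesion adaptor (-1.02), were lost whichever WT array was left out, with adjusted p-values up to 0.287. Ctgf (now Ccn2), a matricellular protein induced by TGF-beta and YAP, was measured at 16.37 and 16.50 in fibroblasts alone and 14.90 and 14.78 after co-culture. The groups did not overlap. Ctgf fell by 1.59 (SE 0.25, adjusted p = 0.00217). Tgfbi, a secreted matrix protein that TGF-beta induces, rose by 2.03 (SE 0.31, adjusted p = 0.00177), from 10.32 and 10.55 to 12.43 and 12.51. Of 21 tested contractile genes 1 was higher (Synpo2, an actin-bundling protein, by 0.80) and 4 lower. Mylk, myosin light chain kinase, fell by 0.99 (SE 0.14) and Myocd, the smooth muscle coactivator of SRF, by 0.81. Actg2, smooth muscle gamma actin, fell by 0.99 and Srf by 0.46. The calls of Actg2 and Srf were lost whichever WT array was left out (adjusted p up to 0.253), and that of Synpo2 without co-culture B (0.0549). With only the 4 WT arrays in the fit 10 contractile genes were lower. Acta2, the smooth muscle actin used as a marker of activated fibroblasts, stood at 18.31 and 18.32 alone and 17.77 and 17.82 after co-culture, a difference of -0.52 (SE 0.32, adjusted p = 0.384). After subtraction and rescaling Ctgf was still lower, at -1.0 (adjusted p = 0.0334), and Mylk was not (-0.48, adjusted p = 0.0663).

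Among 17 tested genes used as markers of activated fibroblasts 4 were higher and 0 lower (background 6.31% higher and 4.2% lower). The 4 were S100a4, Lrrc15, and Mmp3 and Tgfb1 with the values given above. S100a4, a calcium-binding protein also known as FSP1, was at 16.50 and 16.58 in fibroblasts alone and 17.98 and 18.04 after co-culture, a rise of 1.47 (SE 0.12, adjusted p = 1.38e-05). Tumor cells held it at 17.87 alone and 18.37 after co-culture. Lrrc15, a membrane protein of activated fibroblasts, rose by 0.84 and lost its call whichever WT array was left out (adjusted p up to 0.22). Fap, a membrane protease, and the matrix proteins Postn and Tnc differed by -0.53 (SE 0.29), -1.08 (SE 0.82) and -0.57 (SE 0.29), and none passed. Without fibroblasts alone A, or without co-culture B, 2 of the 17 were higher. With only the 4 WT arrays in the fit 5 were higher and 5 lower, with normexp-corrected scanner intensities 3 of 15 higher and 2 lower, and after subtraction and rescaling 2 of the 17 higher and 2 lower.

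The count of collagen and other matrix genes that passed depended on the arrays in the fit. Of 21 tested collagen chains 2 were higher and 3 lower, with a median of -0.32 (background for both lists 6.31% higher and 4.2% lower). Col18a1, the chain that holds endostatin, was measured at 11.37 and 11.31 in fibroblasts alone and 14.17 and 14.09 after co-culture, with tumor means of 14.22 and 14.74. Its rise was 2.79 (SE 0.11, adjusted p = 3.52e-08), and Col7a1, the anchoring fibril collagen, rose by 1.64. Both stood below the co-cultured tumor level. Col5a3, a minor fibrillar chain, fell by 1.29 (SE 0.19), from 12.87 and 12.67 to 11.48 and 11.49. The major fibrillar chains did not pass: Col1a1 differed by -0.08 (SE 0.34), Col1a2 by -0.16 (SE 0.39) and Col3a1 by -0.47 (SE 0.49). Of 31 tested glycoproteins, proteoglycans and crosslinking enzymes 2 were higher, Spp1 (osteopontin, 4.95) and Lum, and 2 lower, Fmod (fibromodulin, -0.98) and Mfap4 (microfibril-associated protein 4, -1.36). Spp1 went from 11.14 and 11.53 to 16.23 and 16.34, beside a co-cultured tumor mean of 16.64. The other 2 collagen calls, Col11a1 and Col14a1, were lost whichever WT array was left out (adjusted p up to 0.243). With only the 4 WT arrays in the fit 10 collagens and 17 of the 31 matrix genes were lower, with 2 higher in each list. After subtraction and rescaling 1 collagen was higher and 1 lower, with a median of 0.06, and 4 matrix genes were higher and 0 lower.

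Of 32 tested Wnt and BMP genes 2 were higher and 5 lower (background 6.31% higher and 4.2% lower), 25 did not pass, and the median was -0.51. Wif1, described above, was the largest fall of the list, and the BMP antagonist noggin (Nog) fell by 1.07 (SE 0.18, adjusted p = 0.00269), from 9.41 and 9.69 to 8.32 and 8.63. Wisp1 (now Ccn4), a Wnt target, fell by 1.0 (SE 0.18), and Chrdl1, another BMP antagonist, by 0.80. The ligand Wnt10b was the fifth lower gene, and its call was lost whichever WT array was left out (adjusted p up to 0.179). The rises were in Gdf5, a BMP-family ligand (0.65), and Wnt10a (0.51), both above their tumor levels of 6.38 and 5.14 in tumor cells alone. Both were lost whichever WT array was left out (adjusted p up to 0.207), and Chrdl1 without co-culture A, co-culture B or fibroblasts alone B (up to 0.0889). The count of lower genes was 4 without fibroblasts alone A and 3 without each of the others. After subtraction and rescaling 5 genes of the list were higher and 3 lower, with a median of -0.13, and with the upper quartile of the share the median was 0.057. With only the 4 WT arrays in the fit 5 were higher and 17 lower.

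Hypoxia and glycolysis genes rose in part. Of 33 tested genes 10 were higher and 3 lower (background 6.31% higher and 4.2% lower), with a median of 0.35. The 3 were Car9, the glucose transporter Slc2a3 and the prolyl hydroxylase P4ha2. Of the 10 genes 8 were at least 2-fold higher in tumor cells alone than in fibroblasts alone, and without such genes 2 of 19 were higher and 2 lower, with a median of -0.22. Ankrd37, a direct HIF target, was measured at 9.47 and 9.49 in fibroblasts alone and 10.92 and 11.05 after co-culture. Bnip3, a mitophagy receptor, went from 11.35 and 11.45 to 12.62 and 12.72. Tumor cells held both higher, at 11.83 and 13.57 alone. The rises were 1.5 (SE 0.12, adjusted p = 1.03e-05) and 1.27 (SE 0.09, adjusted p = 7.32e-06). Eno2, an enolase, rose by 1.12 and Pdk1, which restrains entry of pyruvate into mitochondria, by 0.80. Car9, the carbonic anhydrase most tied to hypoxia, went the other way, from 14.97 and 14.95 to 13.84 and 13.93, a fall of 1.07 (SE 0.16, adjusted p = 0.00159). It was at 7.18 in tumor cells alone. Ldha rose by 0.50, a call lost whichever WT array was left out (adjusted p up to 0.229), and Slc2a1, the main glucose transporter, differed by 0.45 (SE 0.18, adjusted p = 0.163). The higher count of 10 became 6, 4, 4 and 5 without co-culture A, co-culture B, fibroblasts alone A and fibroblasts alone B, and 5 after subtraction and rescaling. The lower count of 3 became 1 without co-culture A or fibroblasts alone B, where Slc2a3 did not pass (adjusted p up to 0.0867), and P4ha2 did not pass without any one of the 4 arrays (up to 0.239).

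Few cell cycle genes passed the test (background 6.31% higher and 4.2% lower). Of 35 tested DNA replication genes 0 were higher and 4 lower, among them Ccne1 (cyclin E1), Prim1 (primase) and Fen1 (a flap endonuclease) at -0.50, -0.51 and -0.48, with a median of -0.24 over the list. Of 30 mitosis genes 0 were higher and 1 lower, the spindle motor Kif11 (-0.42), with a median of -0.09. Mki67 differed by -0.08 (SE 0.12) and Mcm2 by -0.06 (SE 0.14). All 5 calls of both lists were lost without co-culture A, where Ccne1 had an adjusted p of 0.0639. Tumor cells held these genes at equal or higher levels, so the subtracted values were lower: 25 of the 35 replication genes and 24 of the 30 mitosis genes were then lower, against 8.5% of all genes.

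Stress genes showed few calls (background 6.31% higher and 4.2% lower). Of 24 tested heat shock genes 1 was higher, Hspa4l, an HSP110-type chaperone (1.5, but -1.71 after subtraction and rescaling, when it did not pass), and 1 lower, the small heat shock protein Cryab (-0.77). Hspa1a, Hsp90aa1, Hspb1 and Dnajb1 differed by -0.78 (SE 0.27), 0.07 (SE 0.13), 0.12 (SE 0.18) and 0.06 (SE 0.20), and none passed. Hsf1 itself was measured at 12.01 and 11.69 in fibroblasts alone and 12.05 and 12.04 after co-culture, a difference of 0.20 (SE 0.12, adjusted p = 0.388). Of 22 tested ER stress genes 2 rose, Sdf2l1 (0.79) and Creld2 (0.54), and of 20 ATF4 and amino acid genes 3 fell: Slc7a5, an amino acid transporter, Chac1, a glutathione-degrading enzyme, and Shmt2, a serine hydroxymethyltransferase. All of these ER stress and ATF4 calls were lost without co-culture B, with the highest adjusted p over the 4 fits between 0.0899 (Sdf2l1) and 0.292 (Shmt2).

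The remaining lists had mixed calls (background 6.31% higher and 4.2% lower). Of 26 NRF2 antioxidant genes 2 rose, the aldehyde oxidase Aox1 (1.91, SE 0.26) and the glutathione transferase Gstm1 (0.73), and 2 fell, malic enzyme Me1 and heme oxygenase Hmox1. Aox1 was above both tumor means, 7.10 and 8.99, at 9.77 and 9.87. It did not stay above the whole range in every fit that left out 1 WT array. Of 24 p53 target genes 2 rose, Perp, a desmosomal protein (3.64) that stood at 11.17 in co-cultured tumor cells, and the DNA polymerase Polk (0.54), and 3 fell (Pmaip1, Gdf15 and Aen). Of 20 adipocyte and lipid storage genes 3 rose, the lipid droplet coat Plin2 (1.27), the desaturase Scd1 (0.55) and Angptl4, and 3 fell, the adipocyte regulator Pparg (-1.15), lipoprotein lipase Lpl (-1.24) and Dgat2, an enzyme of triglyceride synthesis (-0.83). None of the 3 falling p53 targets, nor of the 3 falling adipocyte genes, kept its call in any fit that left out a WT array, and neither did Polk (adjusted p up to 0.126) or Hmox1 (up to 0.252). Me1 kept it only without fibroblasts alone A (up to 0.0845) and Scd1 only without co-culture A (up to 0.0895). Of 24 cholesterol genes limma called 0, with 6 at an unadjusted p under 0.05.

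**Figure D3:**
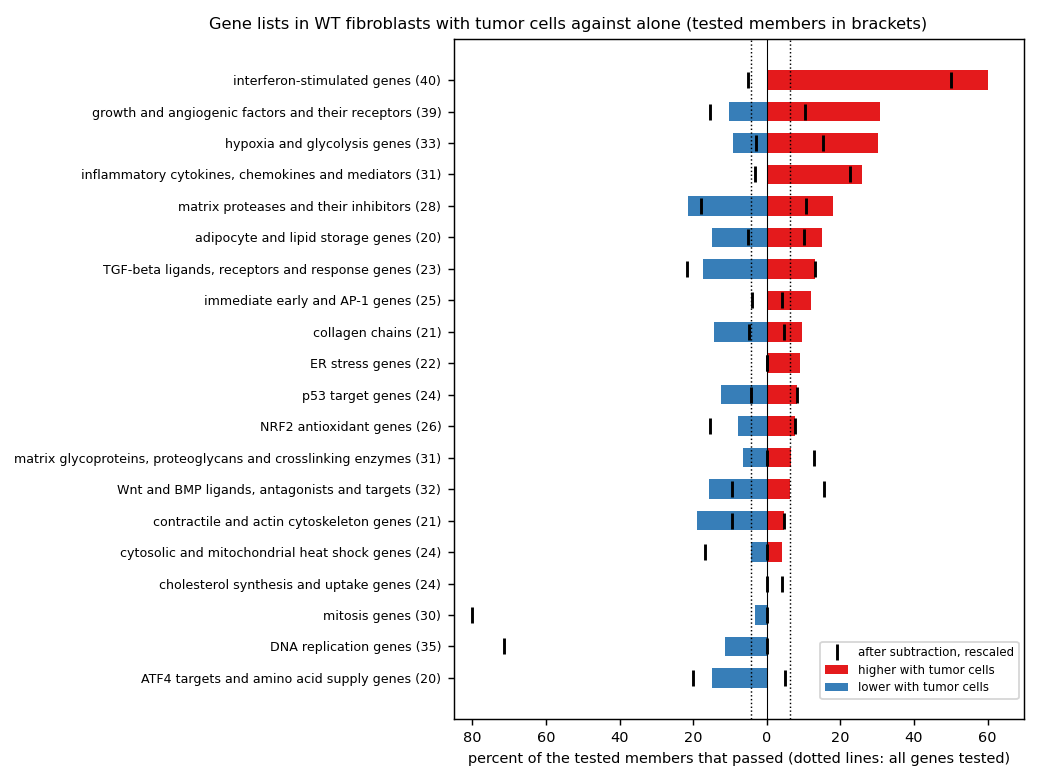
Share of each gene list's tested genes that passed as higher (to the right) or lower (to the left) in co-cultured WT fibroblasts, in percent, as bars for the deposited values and as black ticks after subtraction of the tumor share with rescaling; numbers in brackets are tested genes. Dotted lines mark the shares over all genes, 6.31% higher and 4.2% lower as deposited; the interferon list has the longest bar to the right, 24 of 40 genes, and its tick stands at 20 of 40.

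Hsf1 null fibroblasts answered the same co-culture with fewer calls: 814 genes passed, 728 (2.81%) higher and 86 (0.332%) lower. Genes typical of the tumor cells were also raised less in them. For null fibroblasts the share was taken over 80 genes at least 32-fold higher in tumor cells alone than in null fibroblasts alone. In sorted null fibroblasts their level, less that in null fibroblasts alone, was a median 7.71% of the co-cultured tumor level on slide A. On slide B it was 10.7%, against 39.5% and 38.9% above for WT fibroblasts. The part that this unequal share plays in the differences below was not tested. The test of the difference between the responses called 784 genes (3.03%), 508 (1.96%) with the higher response in WT and 276 (1.07%) with the lower. Of the 508 genes 421 were at least 2-fold higher in tumor cells, and of the 276 genes 166 were at least 2-fold higher in fibroblasts. The 2 kinds of fibroblast also differed before co-culture, and these starting levels are part of the difference tested. Of the 276 genes 244 were at least 2-fold lower in null than in WT fibroblasts grown alone, and of the 508 genes 235 were at least 2-fold higher, against 1846 and 1638 of all 25896 genes. The total was 477 without WT co-culture A, 409 without WT co-culture B, 483 and 471 without WT fibroblasts alone A or B, and 492 and 446 without null fibroblasts alone A or B.

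Among genes that the tumor cells held below the co-cultured WT fibroblasts, some responses did differ. Lum rose by 1.93 in WT and differed by -0.36 in null fibroblasts, which started at 7.90 (adjusted p of the difference 0.000148). Itga10, a collagen-binding integrin chain, was measured at 8.88 and 8.83 in WT fibroblasts alone and 10.51 and 10.72 after co-culture, a rise of 1.76, against -0.40 in null fibroblasts, which already stood at 13.4 alone (adjusted p of the difference 0.00136). Inmt rose by 3.24 in WT and showed 1.49 in null, from 10.88 (0.00927). Ctgf, Col5a3 and Wif1, which fell in WT fibroblasts, differed by 0.53, 0.45 and 0.70 in null fibroblasts, and the responses differed for each, with adjusted p-values of 0.00903, 0.00534 and 0.000367. Null fibroblasts alone held them at 13.26, 8.70 and 4.93, against 16.44, 12.77 and 8.96 in WT. Wif1 was not well above background there and could not have fallen. For Ifit1, Oasl2, Cxcl10 and C4b the test of the difference between responses did not pass: the responses were 2.35 and 2.13, 2.55 and 2.53, 1.63 and 1.76, and 2.74 and 2.18 in WT and null. Adjusted p-values for these differences lay between 0.808 and 1.

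**Figure D4:**
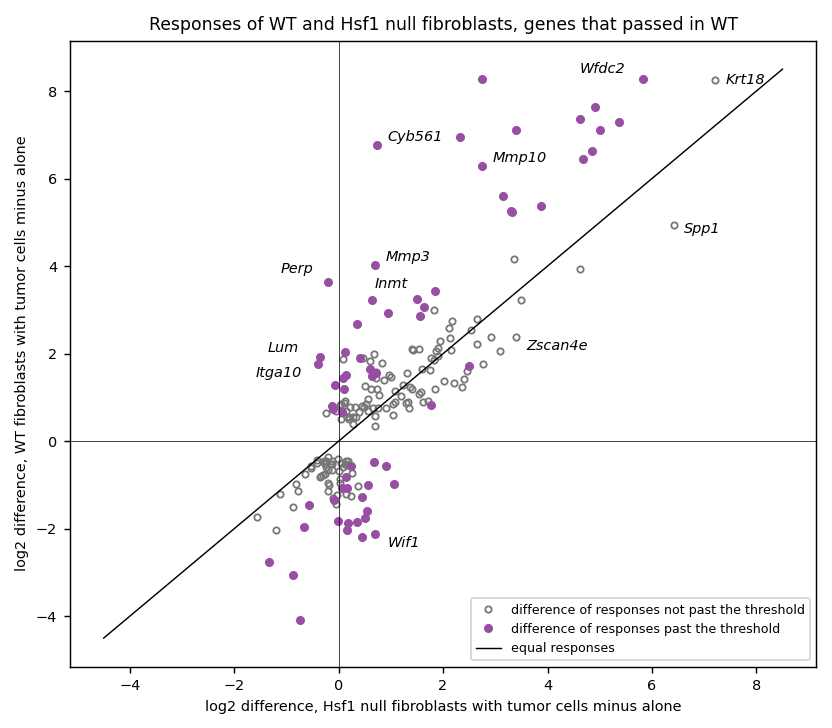
Log2 difference after co-culture in WT fibroblasts (vertical axis) against that in Hsf1 null fibroblasts (horizontal axis) for the genes examined by name that passed in WT, with the line of equal responses. Filled points are genes whose responses differed by the test; Lum, Itga10, Mmp3 and Perp lie above the line near 0 on the null axis, Wif1 lies below it, and Krt18 and Zscan4e are open points.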

How the data were processed

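RNA (0.5 ug per array) was measured on 1-colour Agilent arrays of design 028005. Per the submitters' processing notes the arrays were extracted with Agilent Feature Extraction 9.1, and per the file headers with version 10.1.1.1. The deposited value table holds log2 values made by the authors for 36413 gene names (140 control lines were left out), and its scaling is not given in the sources used here. Background flags and, as an alternative, spot intensity came from the deposited scanner files. On 2 of the 14 arrays (tumor cells alone A and tumor cells with null fibroblasts A) 32.1 and 36.8% of spots carried outlier flags, so their background flags were left out.

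Genes well above background on every array of at least 1 of the 7 groups were tested: 25896. All 7 groups entered 1 limma fit (lmFit and eBayes, limma 3.58.1, R 4.3.3) with 7 residual degrees of freedom and Benjamini-Hochberg adjustment at 0.05. An adjusted p is from this fit unless a left-out array, subtraction or another setting is named with it. Each such setting was fitted and adjusted on its own. The same model separated the difference between WT and null responses. A gene outside the range passed the contrasts against fibroblasts alone and both tumor groups in the same direction. The tumor share was taken over genes at least 32-fold higher in tumor cells alone than in fibroblasts alone on both slides. For each, the level in fibroblasts alone was taken from that in co-cultured fibroblasts of the same slide, on the linear scale. The share is the median of this difference as a percentage of the level in co-cultured tumor cells. That share of the co-cultured tumor profile was subtracted on the linear scale with a floor. On simulated data for the main comparison, run on 25896 genes, the fit recovered 69% of genes changed by 1 log2 unit and 97% of those changed by 2. There only the co-cultured WT group was changed, in few genes, and noise was independent between arrays. The measured groups differ in many genes and share slide deviations, so these rates may not hold for them. Members and gene lists (26) were chosen with earlier results of these data known. Genes were named by rule: per direction the 12 largest differences above background on all 4 arrays and the 4 highest bounds, up to 6 genes per list with the smallest p, and Hsf1, Tgfb1, Tgfb2, Tgfb3, Cxcl12 and Cxcr4. Of those, the ones with a known role were described, and further genes, among them those named as lying outside the range, were added after their values were seen. A few list members are not reported here by name. Replicate letter and slide were the same split. Deviations of the co-culture and fibroblast-alone arrays between slides correlated at 0.47 over genes, which rests on only 2 pairs. Alternatives were the slide as a replicate block, fewer arrays, other filters, quantile scaling, scanner intensities, removal or subtraction of tumor genes and leaving out each array.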

Additional observations from a re-analysis of the deposited data

Results flagged for a closer look

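For 48 genes named above the test of the difference between the WT and the Hsf1 null response passed, and the WT response passed too. Each value is the WT response minus the null response on the log2 scale, from 2 arrays per group. The unequal tumor share of the sorted fibroblasts, a median 39.5 and 38.9% in WT against 7.71 and 10.7% in null, goes beside every one of them, and its part was not tested. The starting levels of the fibroblasts grown alone are part of each value and often differed, and their part was not tested either.

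Several genes held strongly by tumor cells had the larger WT response, but for Krt18 the difference did not pass (adjusted p = 0.145). The values were 6.02 for Cyb561, 5.53 for Olfr1466, 4.63 for Tas2r113, 3.71 for Tnnt2, 2.45 for Wfdc2, 1.93 for Mgst2, 1.77 for Hamp2, 1.52 for Cadm1 and 2.33 for Krt8. Null fibroblasts alone already held Cyb561 at 12.02 and Olfr1466 at 11.66, against 6.49 and 8.33 in WT. Proteases gave 3.53 for Mmp10, 3.32 for Mmp3 and 2.59 for Mmp13, and Mmp15 gave -0.88. The desmosomal gene Perp gave 3.85. Cadm1, Krt8, Mmp10, Mmp13 and, below, Angptl7 were not well above background in WT fibroblasts alone.

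Secreted factors gave 2.45 for Areg, 1.97 for Angptl4, 0.85 for Angptl2, 1.31 for Angptl7 and 1.6 for Lcn2. Hypoxia genes gave 1.36 for Ankrd37, 1.34 for Bnip3 and 0.92 for Pdk1, while Car9 gave -1.14. Other genes with the larger WT response were Ifi203 (1.42), Inmt (1.75), Itga10 (2.15), Lum (2.29), Tgfbi (1.91), Col7a1 (1.05), Car12 (1.08), Gstm1 (0.83), Hspa4l (0.87) and Ptges (0.60).

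Genes lower in WT after co-culture, and not lowered as much in null fibroblasts, formed the other side. Matrix and TGF-beta response genes gave -2.13 for Ctgf, -1.73 for Col5a3, -2.18 for Emid2, -1.81 for Clec3b and -1.27 for Mfap4. Contractile genes gave -2.04 for Actg2, -1.56 for Mylk and -0.95 for Myocd. The growth factor Nrg1 gave -1.15. Wif1 gave -2.82, Nog -1.23, Skor1 -2.25, Prosapip1 -1.43, Chac1 -1.47 and Slc7a5 -0.80. Of the genes in this paragraph null fibroblasts alone held only Prosapip1 at a level like that of WT (11.65 and 11.74). Emid2, Myocd and Wif1 were not well above background in null fibroblasts alone, at 5.42, 5.31 and 4.93, and could not have fallen there. Skor1 stood at 5.96 against 10.62 in WT.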

How the results depend on the processing

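The comparison of WT fibroblasts with and without tumor cells rests on 2 arrays per group, so a count of calls moved with the arrays in the fit while the differences moved less. From 2722 genes the count became 4393 with only the 4 WT arrays, 1683 with scanner intensities scaled to their 75th percentile, 1205 without genes at least 2-fold higher in tumor cells, 4579 after subtraction of the upper quartile of the tumor share, and 146 for genes outside the range. Subtraction without rescaling gave 22277 genes, nearly all lower, since it moved the median of all genes to -0.81; with rescaling the median was -0.12. Leaving out 1 of the 4 arrays gave 1301 to 1592 genes. Of the calls 60% were higher, against 49.1% with the 4 WT arrays only, 35.9% without tumor genes, 25% after subtraction and rescaling, 19.1% with the upper quartile and 66.1 to 79.8% with 1 array left out. The difference between responses gave 784 genes and 409 to 1031 with 1 array left out, and the genes outside the range 146 and 68 to 139.

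With the replicate letter (slide) as a replicate block 3618 genes passed (54.4% higher), which included all 2722, and the genes outside the range became 226; the block ended the call of 0 named genes. Of the 151 genes named as passing, 94 to 100 kept their call with 1 array left out, 146 under quantile scaling, 136 without a filter, 84 with scanner intensities at the 75th percentile and 111 with normexp.

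Only Isg15 turned sign on scanner intensities (-0.025 at the 75th percentile), and the cause was not tested. Subtraction turned more signs, by its construction. Without rescaling the values were Angptl4 -2.99, Areg -0.98, Btg1 -0.091, Cadm1 -0.65, Cldn3 -0.32, Creld2 -0.47, Csf1 -0.94, Dnajb1 -1.12, Elf3 -0.35, Fosl1 -4.46, Gbp3 -1.03, Gstm1 -0.076, Hsf1 -1.27, Hsp90aa1 -1.15, Hspa4l -2.42, Hspb1 -0.73, Ifi203 -1.99, Igfbp6 -0.0095, Il11 -0.87, Ldha -0.67, Lrrc15 -0.022, Mmp9 -1.75, Nes -1.50, Oas1a -2.96, Pdk1 -0.56, Plin2 -0.31, Polk -1.40, Ptges -0.14, Sdf2l1 -0.48, Slc2a1 -1.04, Synpo2 -0.018, Tas2r113 -2.10, Tgfb1 -0.28, Timp1 -0.17, Usp18 -0.73, Vegfa -0.39 and Wfdc2 -1.54. With rescaling they were Angptl4 -2.99, Areg -0.98, Cadm1 -0.65, Cldn3 -0.32, Csf1 -0.22, Elf3 -0.35, Fosl1 -4.46, Gbp3 -0.32, Hsf1 -0.55, Hspa4l -1.71, Ifi203 -1.99, Il11 -0.15, Mmp9 -1.75, Nes -0.78, Oas1a -2.96, Polk -0.68, Tas2r113 -2.10, Usp18 -0.013 and Wfdc2 -1.54. With the upper quartile of the share they were Angptl4 -2.99, Areg -0.98, Cadm1 -0.65, Cd14 -0.86, Cldn3 -0.32, Col7a1 -0.029, Csf1 -0.56, Elf3 -0.35, Fosl1 -4.46, Gbp3 -3.18, Hamp2 -1.17, Hsf1 -1.12, Hsp90aa1 -0.71, Hspa4l -6.26, Ifi203 -1.99, Igfbp6 -2.78, Il11 -2.65, Ldha -0.22, Mmp3 -2.49, Mmp9 -1.75, Myocd 0.020, Nes -4.19, Oas1a -2.96, Pdk1 -0.24, Perp -1.70, Pgf -0.50, Pkp1 -0.37, Plin2 -0.29, Polk -2.01, Sdf2l1 -0.13, Slc2a3 0.16, Tas2r113 -2.10, Usp18 -1.25 and Wfdc2 -1.54. Values at the floor have no order. The subtraction and the genes outside the range were chosen after seeing the data, except subtraction without rescaling. Signal near background limits the genes given as bounds, and Areg, Slc6a2 and Zscan4f, each well above background on only 1 of the 2 arrays of fibroblasts alone.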
